A study of Homo sapiens with 4 samples.

Results

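Cancer-testis antigen and germline genes were followed after RNA interference against BORIS in Caco-2 and HCT116, 2 human cell lines from colorectal carcinomas. A gene was a member when its symbol began with MAGEA, MAGEB, MAGEC, PAGE, XAGE, GAGE, SSX, CTAG or CT45, or was among 20 germline and cancer-testis genes given by name, all 20 of which were found (CASC5 under its current symbol KNL1). Only PrimeView probe sets annotated with a single symbol were used, and the brightest on average stood for its gene, which gave 54 members of 18155 genes. The prefixes also take in SSX2IP, CTAGE1 and CTAGE3P, which share the first letters of SSX and CTAG but belong to other families, and these 3 are named as such. Caco-2 is an established line that can take on enterocyte features, and HCT116 is an established line with defective mismatch repair. Each line was given either BORIS siRNA or a negative siRNA for 3 days, and total RNA of each culture was hybridised to 1 array. The 4 groups, Caco-2 with negative siRNA, Caco-2 with BORIS siRNA, HCT116 with negative siRNA and HCT116 with BORIS siRNA, therefore held 1 array each, and both control arrays carry a transfected negative siRNA. The number of arrays limits the precision, and nothing checks an siRNA difference in 1 line against a replicate.

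Cancer-testis genes are normally active in the germ cells of the testis and silent in other adult tissues, where methylated promoters and germline-gene repressors hold them off, and many tumours reactivate some of them. Many lie in multigene families on the X chromosome, such as MAGE, GAGE, SSX and XAGE. BORIS, the protein of CTCFL, is itself a cancer-testis antigen and a paralog of the insulator protein CTCF, and it has been reported to activate members of the MAGE and CTAG families. Germline genes outside the antigen families serve meiosis (SYCP1, SYCP3, STAG3), the Piwi-interacting RNA pathway that silences transposons (PIWIL1, PIWIL2, TDRD1, GTSF1) or sperm function (LDHC, ACRBP, SPA17).

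The promoters below belong to the members on which the results turn: MAGEB2 and GTSF1 have the largest difference between the lines among the members, PRAME and MAGEB1 were read above background in HCT116 alone and were picked for printing after their values were seen, and MAGEB3 is the neighbour of MAGEB2 that was at background on all 4 arrays. Each run is the 250 bases upstream of a RefSeq transcription start (GRCh38.p14), 5′ to 3′ on the gene's strand, with CG dinucleotides in capitals. MAGEB2 lies at chrX:30215313-30215562 on the plus strand, GTSF1 at chr12:54473603-54473852 on the minus strand, PRAME at chr22:22559266-22559515 on the minus strand (the most upstream of 3 starts), MAGEB1 at chrX:30243481-30243730 (upstream start) and chrX:30246896-30247145 (downstream start) on the plus strand and MAGEB3 at chrX:30230407-30230656 on the plus strand.
MAGEB2: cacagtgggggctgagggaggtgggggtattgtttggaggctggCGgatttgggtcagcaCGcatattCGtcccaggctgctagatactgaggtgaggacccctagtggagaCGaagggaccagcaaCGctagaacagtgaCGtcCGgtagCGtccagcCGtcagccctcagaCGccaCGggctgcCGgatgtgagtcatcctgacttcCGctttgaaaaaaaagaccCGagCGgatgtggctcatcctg
GTSF1: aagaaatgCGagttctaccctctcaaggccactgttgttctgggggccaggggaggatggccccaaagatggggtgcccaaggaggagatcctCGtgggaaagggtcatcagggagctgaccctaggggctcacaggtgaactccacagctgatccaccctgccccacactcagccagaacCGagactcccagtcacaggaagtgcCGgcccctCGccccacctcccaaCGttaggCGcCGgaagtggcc
PRAME: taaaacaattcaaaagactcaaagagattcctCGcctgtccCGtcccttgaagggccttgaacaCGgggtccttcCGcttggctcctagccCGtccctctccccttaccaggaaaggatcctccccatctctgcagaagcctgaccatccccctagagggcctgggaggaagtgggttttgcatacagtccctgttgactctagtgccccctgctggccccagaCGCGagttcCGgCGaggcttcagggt
MAGEB1, upstream start: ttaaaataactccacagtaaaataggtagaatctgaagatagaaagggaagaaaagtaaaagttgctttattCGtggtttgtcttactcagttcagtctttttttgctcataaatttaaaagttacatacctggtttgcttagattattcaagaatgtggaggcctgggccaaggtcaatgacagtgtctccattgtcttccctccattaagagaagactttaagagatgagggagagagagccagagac
MAGEB1, downstream start: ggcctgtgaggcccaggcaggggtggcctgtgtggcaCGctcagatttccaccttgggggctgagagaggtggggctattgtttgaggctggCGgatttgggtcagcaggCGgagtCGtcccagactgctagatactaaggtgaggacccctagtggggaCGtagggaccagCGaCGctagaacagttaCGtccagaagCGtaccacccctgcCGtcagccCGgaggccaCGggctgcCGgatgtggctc
MAGEB3: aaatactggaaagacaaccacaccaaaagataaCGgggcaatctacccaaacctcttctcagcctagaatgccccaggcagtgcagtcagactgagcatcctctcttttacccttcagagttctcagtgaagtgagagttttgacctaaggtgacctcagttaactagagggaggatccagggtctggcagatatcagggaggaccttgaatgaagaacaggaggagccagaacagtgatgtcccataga

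The MAGEB2 window held 15 CG dinucleotides, a number reached by 42.9% of 35116 windows of the same length in the RefSeq table, whose median was 11. GTSF1 held 8 and PRAME 9, reached by 56.3% and 54.1% of windows. The downstream start of MAGEB1 held 13 and its upstream start 1, and MAGEB3 held 1, a number that 93.9% of windows reached. In a global alignment, the windows of MAGEB2 and of the downstream MAGEB1 start matched at 174 of 195 aligned bases (89.2%), and those of MAGEB2 and MAGEB3 at 126 of 215 (58.6%), where GTSF1 and PRAME matched at 62.4%. The ETS core CCGGAA, searched on both strands like the other motifs and counted apart from any overlap with them, occurred in the GTSF1 and PRAME windows, in 5 of the 41 members with a window and in 14.5% of all windows. The E2F6 core GCGGGA and the E-box CACGTG were in none of the 6 printed runs, in 11 and 6 of the 41 members and in 23.5% and 6.34% of all windows. For the 41 members the most upstream start of each was counted, which for MAGEB1 is the window with 1 CG dinucleotide and not the one with 13. The median was 9 CG dinucleotides for the 9 above background on at least 1 array (1 to 26) and 8.5 for the 32 below it (1 to 28), so the number of CG dinucleotides in the window overlapped fully between them.

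Most members were not measurable on these arrays. Olfactory receptor genes served as a gauge of background, taken as the level that 95% of their 359 probe sets did not exceed on an array, a log2 value of 4.82 to 5.18. Of the 54 members, 41 lay below it on all 4 arrays, between 2.43 and 4.89, 13 lay above it on at least 1 array and 8 on all 4. Of all 18155 genes, 12041 reached the same level on at least 1 array. Of the 33 members on the X chromosome, 26 were at background throughout. The members nearest below the level were MAGEC3, at 4.65 and 4.70 in Caco-2 and 4.76 and 4.57 in HCT116 with control and BORIS siRNA, and MAGEB4, at 4.47, 4.45, 4.89 and 4.73 in the same order. The nearest above it were PAGE5 and CTAG2, whose values follow further on.

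By family, the values below background covered all 6 MAGEA genes paired with a probe set of their own (MAGEA1, MAGEA4, MAGEA8, MAGEA10, MAGEA11 and MAGEA12, 2.47 to 4.63) and all 3 MAGEC genes (3.77 to 4.76). They also covered 6 of 8 MAGEB genes, 4 of 5 SSX genes (SSX1, SSX3, SSX5 and SSX8P), 3 of 4 PAGE genes, 2 of 3 XAGE genes and both CTAGE genes. Of the 20 genes given by name, 15 were at background (2.70 to 4.69). Those were the synaptonemal complex genes SYCP1 and SYCP3 and the meiotic cohesin gene STAG3, the Piwi genes PIWIL1 and PIWIL2 with their Tudor partner TDRD1, the germ cell RNA-binding protein gene DAZL, the helicase genes DDX43 and DDX53, the intercellular bridge gene TEX14, TEX15, the testis bromodomain gene BRDT, the sperm lactate dehydrogenase gene LDHC, the acrosin-binding gene ACRBP and SPANXB1. No fold is given for these 41 genes, since both sides of every difference are at background.

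In HCT116, 4 members were above background on both arrays and at background on both Caco-2 arrays, a pattern shown by 2.22% of all 18155 genes, and 0 members showed the opposite pattern, which 2.42% of all genes did. MAGEB2, an X-linked member of the MAGE family of ubiquitin ligase partners, read 3.36 and 2.98 in Caco-2 with control and BORIS siRNA and 11.20 and 11.19 in HCT116. GTSF1, a zinc finger cofactor of Piwi proteins, read 3.99 and 4.23 in Caco-2 and 11.60 and 11.87 in HCT116. On the HCT116 control array, GTSF1 was brighter than 97.9% and MAGEB2 than 96.8% of genes. PRAME, a leucine-rich repeat antigen that represses retinoic acid receptor signalling, read 2.99 and 3.29 in Caco-2 and 8.30 and 7.65 in HCT116. MAGEB1, the neighbour of MAGEB4, read 3.92 and 3.44 in Caco-2 and 6.82 and 6.58 in HCT116, and its other probe set also read above background in HCT116 alone, at 6.86 and 6.70. That the lines do not overlap for these 4 genes follows from the pattern by which they were picked. The 2 arrays of a line lie close together beside the gap.

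**Figure D1:**
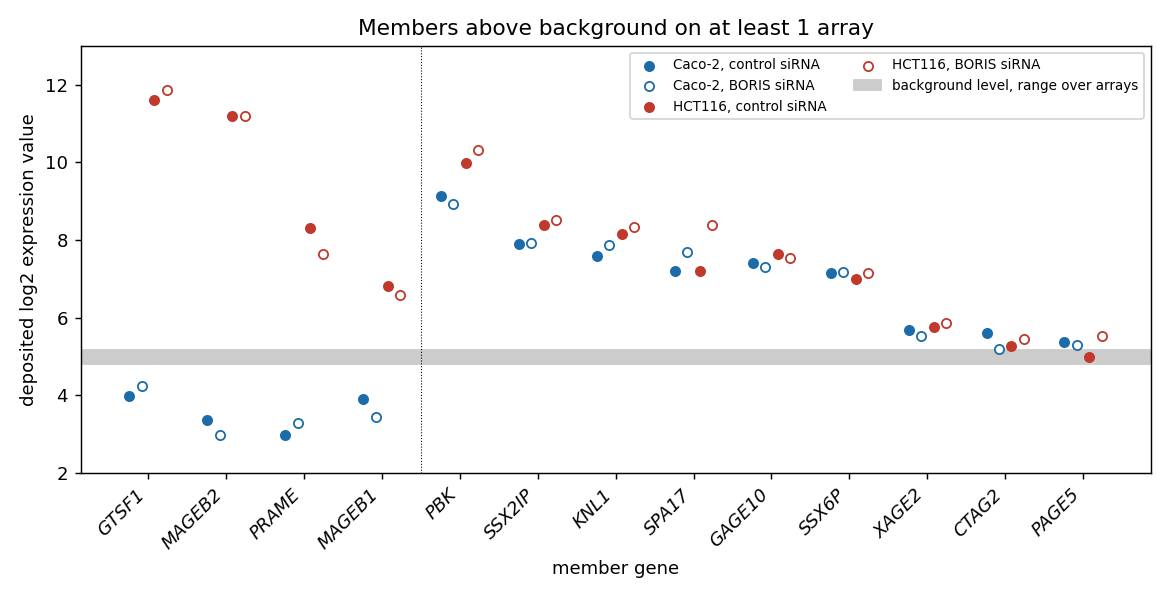
Deposited log2 values (vertical axis) of the 13 members above background on at least 1 array (horizontal axis), with 1 point per array and the background level as a grey band from 4.82 to 5.18. Left of the dotted line, GTSF1, MAGEB2, PRAME and MAGEB1 lie below the band in Caco-2 (blue) and above it in HCT116 (red), and filled and open points stand for control and BORIS siRNA.

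The difference between the lines was tested with limma across all genes that reached the array median on at least 1 array, with siRNA as a block. Of 11179 genes tested, 2148 were higher in HCT116 (19.2%) and 2202 higher in Caco-2 (19.7%) at a Benjamini-Hochberg adjusted p under 0.05. Of the 13 members tested, 5 were higher in HCT116 and 0 in Caco-2, but MAGEB2, GTSF1, PRAME and MAGEB1 entered the test only through their HCT116 values and had to differ, so the count of 5 is not evidence about the members as a group and no test is given for these 4. With the Caco-2 values raised to the background level, HCT116 was at least 76.5-fold higher for MAGEB2, 111-fold for GTSF1, 8.21-fold for PRAME and 3.39-fold for MAGEB1. Within the control arrays 10.8% of the 11179 genes were higher in HCT116 at 2-fold or more, and within the BORIS arrays 10.4%. Of the 13 members these were 4 and 5, the same 4 genes among them, with PBK past 2-fold on the BORIS arrays only. The 2 arrays of a line come from differently treated cultures. The block removes an siRNA effect shared by the lines, so the spread behind these tests includes any siRNA effect that differs between them. Fewer cells with a transcript cannot be told apart from less transcript per cell.

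**Figure D2:**
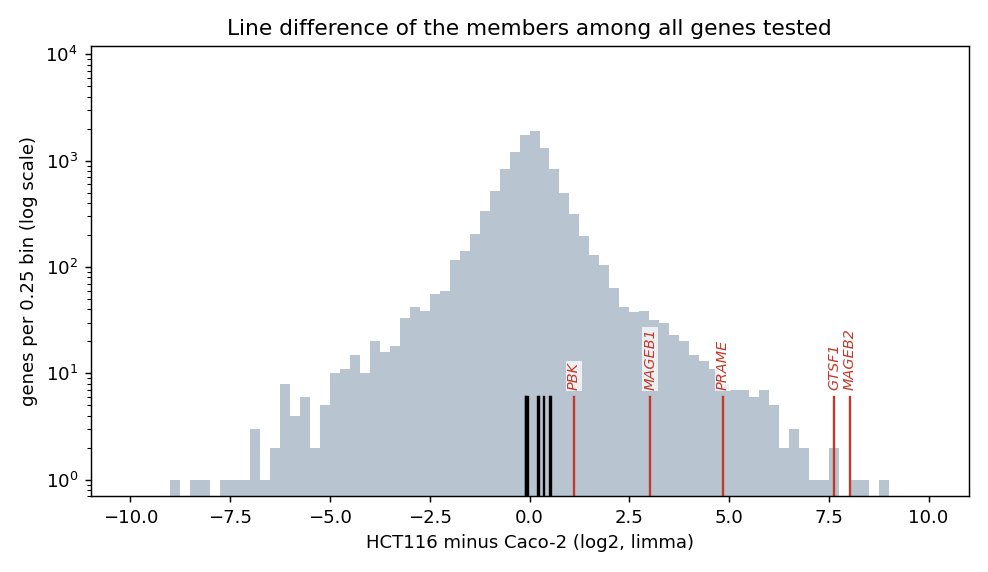
Number of genes (vertical axis, log scale) by their difference between HCT116 and Caco-2 (horizontal axis, log2 from limma, equal bins) among the 11179 genes tested, with the 13 members as vertical marks whose height carries no value. Red marks are the 5 members past the threshold, of which MAGEB2, GTSF1, PRAME and MAGEB1 are drawn at differences from Caco-2 values at background and have only a bound, and the other 8 marks lie between -0.09 and 0.54.

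The MAGEB genes differed among direct neighbours. In the RefSeq gene order of the X chromosome, MAGEB2, MAGEB3, MAGEB4 and MAGEB1 are consecutive coding genes. In HCT116 the outer genes MAGEB2 and MAGEB1 were above background, while MAGEB3 between them read 2.91 and 2.86 with control and BORIS siRNA and MAGEB4 read 4.89 and 4.73. MAGEB3 was equally dim in Caco-2, at 2.78 and 2.73. The other MAGEB genes with a value, MAGEB6, MAGEB10, MAGEB16 and MAGEB18, were at background on all arrays. Probe sets of different genes bind with different strength, so only presence above background is compared here and not the height.

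Some MAGEA genes are nearly identical in sequence, and probe sets paired with several of them cannot be assigned to a gene. Beside the members, 30 probe sets were paired with several genes of which at least 1 meets the rule, and 5 of these carried only MAGEA symbols. They are outside the 54 members and are not named by gene. Of these 5, 4 were bright in HCT116 and at background in Caco-2. The brightest read 3.24 and 2.90 in Caco-2 with control and BORIS siRNA and 11.18 and 11.16 in HCT116. The other three lay between 3.20 and 3.94 in Caco-2 and between 9.40 and 10.47 in HCT116. The fifth read 4.94, 4.79, 4.69 and 5.23 and passed background on 1 array, HCT116 with BORIS siRNA. Signal of the MAGEA family was thus read in HCT116, while all 6 MAGEA genes with a probe set of their own were at background there. With BORIS siRNA in HCT116 the 4 bright probe sets differed by -0.02, -0.22, -0.08 and -0.15. The 6 shared GAGE probe sets (2.38 to 3.77), 2 shared CT45 probe sets (2.98 to 4.70), 3 shared PAGE probe sets (2.41 to 3.30) and 1 shared XAGE probe set (2.70 to 3.17) were at background on all arrays. Of 5 shared CTAG probe sets 3 were above background on all 4 arrays, the brightest at 7.28 and 7.38 in Caco-2 and 7.41 and 6.83 in HCT116. Of 5 shared SSX probe sets 1 was above it on all 4, at 7.54 and 7.22 in Caco-2 and 7.72 and 7.69 in HCT116, and 1 on a single array. Another 3 probe sets paired a member symbol with one outside the rule. The one above background, shared by STAG3 and its partial copies STAG3L1, STAG3L2 and STAG3L3, was brighter in Caco-2, at 7.96 and 7.99 against 6.06 and 5.85 in HCT116.

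**Figure D3:**
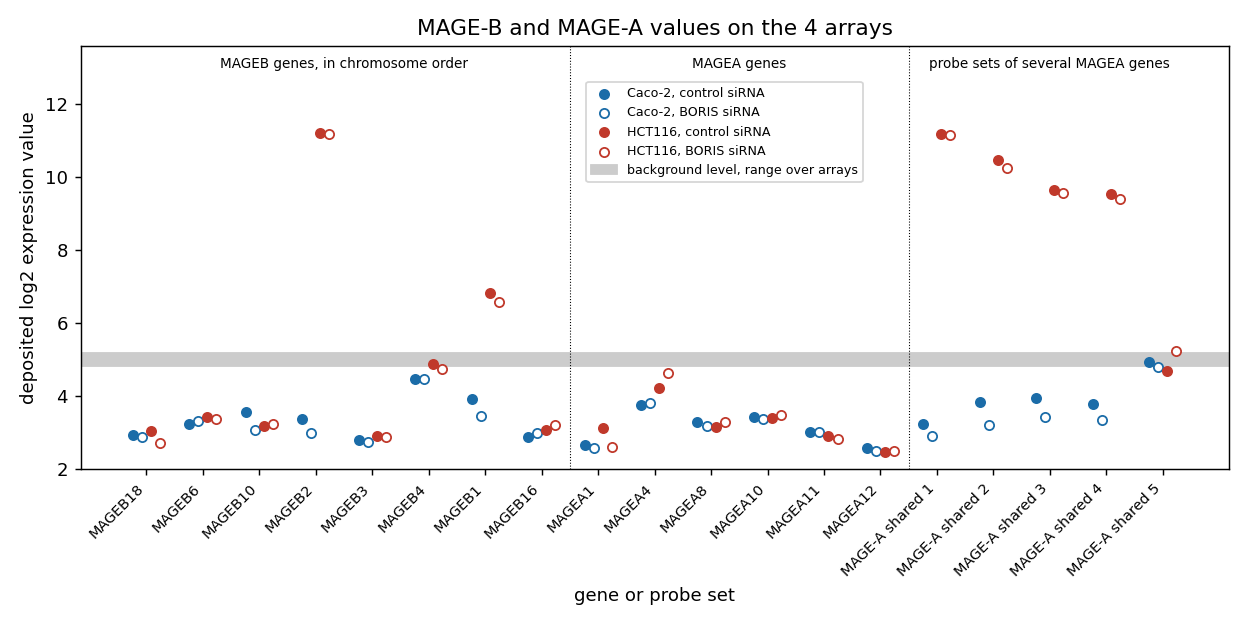
Deposited log2 values (vertical axis) of MAGEB genes in their order on the X chromosome, of MAGEA genes, and of 5 probe sets paired with several MAGEA genes, with 1 point per array. MAGEB2, MAGEB1 and 4 of the 5 shared MAGEA probe sets lie above the grey background band in HCT116 (red) and below it in Caco-2 (blue), while MAGEB3, MAGEB4 and the 6 single MAGEA genes lie below or, for MAGEB4, at the lower edge of it.

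Both lines read 4 members with known roles outside the germline. PBK, a kinase active in mitosis, read 9.15 and 8.92 in Caco-2 with control and BORIS siRNA and 9.97 and 10.32 in HCT116, with no overlap between the lines. It was higher in HCT116 by 1.11 (SE 0.20, limma adjusted p 0.0063), by 0.83 on the control arrays and by 1.40 on the BORIS arrays. The 24 probe sets for poly-A spike-ins averaged 6.78 and 6.71 in Caco-2 with control and BORIS siRNA. In HCT116 their average was 7.57 and 8.44, so this control signal differed between the lines too. Whether that gap enters the line difference of PBK or of other genes was not tested. KNL1, the kinetochore scaffold that the rule lists as CASC5, read 7.59 and 7.88 in Caco-2 and 8.16 and 8.33 in HCT116. Its line difference of 0.51 did not pass the test (SE 0.18, limma adjusted p 0.062), and did after quantile normalization or loess correction. Of the other 3 KNL1 probe sets, 1 rose above background, on the HCT116 array with BORIS siRNA only (5.49). SSX2IP, a centrosome and cell junction protein gene caught by its first letters, read 7.91 and 7.92 in Caco-2 and 8.39 and 8.51 in HCT116, a line difference of 0.54 (SE 0.17, limma adjusted p 0.052). Of the other 6 SSX2IP probe sets 5 were above background, with smaller line differences, from -0.03 to 0.37. The mean of all its probe sets differed by 0.32. SPA17, a sperm protein that binds A-kinase anchoring proteins and is also made in ciliated cells, read 7.20 and 7.69 in Caco-2 and 7.20 and 8.40 in HCT116, so the lines overlapped and the line difference of 0.36 did not pass (SE 0.22, limma adjusted p 0.25).

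The remaining 5 measurable members were nearly equal on the 4 arrays, and their probe sets disagreed where there was more than 1. GAGE10 read 7.42 and 7.31 in Caco-2 with control and BORIS siRNA and 7.65 and 7.54 in HCT116 from its only probe set. SSX6P, a pseudogene, read 7.16, 7.19, 7.01 and 7.16 in the same order from an _x_at probe set, a kind that can bind related transcripts, while its other probe set stayed between 2.98 and 3.22. XAGE2 read 5.67, 5.52, 5.75 and 5.87, and its other probe set stayed between 2.79 and 3.00. CTAG2 read 5.60, 5.19, 5.28 and 5.44, and 1 of its other 2 probe sets was above background. PAGE5 read 5.37, 5.29, 4.98 and 5.52, while its other 4 probe sets did not pass background (2.86 to 4.78). The line differences of these 5 genes lay between -0.09 and 0.23, and none passed the limma test (adjusted p 0.35 to 0.93). With background at the level that 99% of the olfactory receptor probe sets did not exceed, 10 members lay above it.

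The targeted gene gave no measure of the knockdown. CTCFL had 7 probe sets, and the brightest read 5.07 and 5.09 in Caco-2 with control and BORIS siRNA and 5.07 and 4.93 in HCT116, above background on the Caco-2 arrays only and under the array median on all 4. The other 6 were at background throughout. The siRNA labels therefore have no check from the target, and the differences given here are between the arrays so labelled.

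With BORIS siRNA, 1 measurable member passed 2-fold, SPA17 in HCT116. A member counted as expressed in a line when it reached the array median on at least 1 of its 2 arrays, which held for 8 members in Caco-2 and 12 in HCT116. In Caco-2, 0 of 8 members were higher and 0 lower at 2-fold or more, where 0.404% and 0.0481% of 10404 expressed genes were. In HCT116, 1 of 12 was higher and 0 lower, where 0.583% and 1.46% of 10642 expressed genes were. The median difference of the members was -0.05 in Caco-2, with 4 higher and 4 lower, beside 0.0024 over all expressed genes. In HCT116 it was 0.14, with 8 higher and 4 lower, beside -0.05 over all expressed genes.

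SPA17 read 8.40 against 7.20 in HCT116, a difference of 1.20 or 2.29-fold. In Caco-2 it read 7.69 against 7.20, a difference of 0.49, so the BORIS array was the higher one in both lines. In the limma fit with cell line as a block, the SPA17 difference was 0.84 (SE 0.22, unadjusted p 0.0084, adjusted p 0.77). With the values as deposited, 0% of 11179 genes passed that fit, which has 1 residual degree of freedom. At an unadjusted p under 0.05 there were 665 genes, and 1 of the 13 members, SPA17. After quantile normalization SPA17 passed (difference 0.85, SE 0.21, limma adjusted p 0.018), as 0.769% of 11180 genes did. After loess correction it passed as well (0.86, SE 0.21, limma adjusted p 0.011), where 1% of 11173 genes did. In both settings the difference and its SE hardly moved from 0.84 and 0.22 as deposited. The unadjusted limma p fell from 0.0084 to 7.8e-05 after quantile normalization and to 4.1e-05 after loess correction. Passing there is thus no evidence of a larger SPA17 difference, and what lowered the p was not tested. Over all settings tried the limma adjusted p of SPA17 ran from 0.011 to 0.87. On the HCT116 array with BORIS siRNA the poly-A spike-in controls were also higher, by 0.87 over 24 probe sets, against -0.07 in Caco-2, and their part in the SPA17 difference was not tested.

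Of the genes read only in HCT116, PRAME differed most between its arrays. MAGEB2 differed by -0.01 between BORIS and control siRNA there, GTSF1 by 0.27, MAGEB1 by -0.25 and PRAME by -0.65, from 8.30 to 7.65 or 1.57-fold. The PRAME difference is larger than that of most genes, since the standard deviation of the HCT116 difference over all expressed genes is 0.40, but it did not reach 2-fold. In Caco-2 these genes were at background on both arrays and have no fold. Among the mitotic members, the differences in Caco-2 and HCT116 were -0.23 and 0.34 for PBK, and 0.30 and 0.17 for KNL1. In HCT116, PAGE5 stood at 0.54, 0.42 with its control value raised to background.

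**Figure D4:**
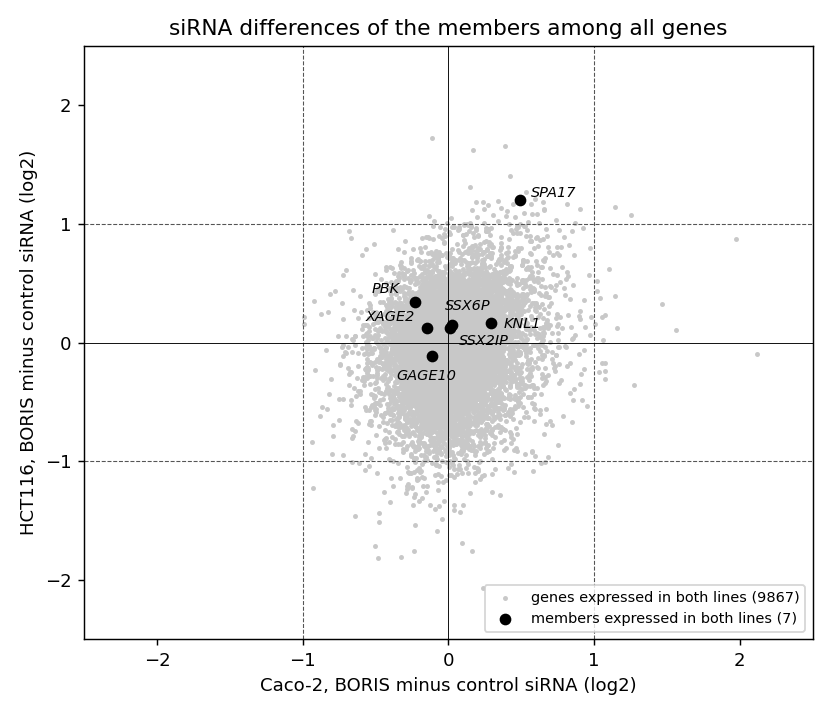
Difference between BORIS and control siRNA (log2) in Caco-2 (horizontal axis) and HCT116 (vertical axis) for the 9867 genes expressed in both lines (grey) and the 7 members among them (black), with dashed lines at 2-fold. SPA17, at 0.49 and 1.20, is the member outside the dashed lines, and the other 6 lie between -0.23 and 0.34 in both lines.

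Somatic relatives of the silent germline members, with kinetochore partners of KNL1 in the same list, were read in both lines. Of the 21 genes, all were above background on at least 1 array, and 0 differed 2-fold with BORIS siRNA in either line. By limma 1 was higher in HCT116 and 8 in Caco-2, where 19.2% and 19.7% of all 11179 genes tested were. The 1 higher in HCT116, BUB1B, and 1 of the 8, MIS12, were kinetochore genes. Beside STAG3, at 3.13 to 3.28, the mitotic cohesin genes STAG1, STAG2, SMC1A and SMC3 were each higher in Caco-2. The largest of these differences was that of SMC1A, at 10.45 and 10.64 in Caco-2 with control and BORIS siRNA and 9.40 and 8.88 in HCT116, or -1.41 as HCT116 minus Caco-2 (SE 0.21, limma adjusted p 0.0034). Beside the Piwi genes, the Argonaute genes AGO1, AGO2 and AGO4 were higher in Caco-2 as well, AGO4 by at least 2.36-fold (limma adjusted p 0.0042), since its HCT116 array with BORIS siRNA was below background. The lactate dehydrogenase genes LDHA, at 13.09 to 13.36, and LDHB, at 13.04 to 13.20, were nearly equal on the 4 arrays, where LDHC was at background.

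Of 9 somatic MAGE genes measured, which are relatives expressed broadly, 5 were above background on at least 1 array. MAGEE1 read 3.93 and 3.75 in Caco-2 with control and BORIS siRNA and 6.37 and 5.46 in HCT116, the same pattern as MAGEB2, and was at least 1.97-fold higher there. NSMCE3 was higher in HCT116 (0.68, SE 0.17, limma adjusted p 0.022), and MAGEF1 was lower (-0.63, SE 0.17, limma adjusted p 0.026). None reached 2-fold with BORIS siRNA.

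Of 53 measured meiosis and germline genes outside the rule, 40 were at background on all arrays. Among the other 13, GPAT2, HENMT1 and PIWIL4 were at background in 1 line, so they entered the test only through the line where they were high, and each is given as a bound without a test. The Piwi pathway genes differed in direction. GPAT2, a mitochondrial partner of Piwi proteins, read 4.41 and 4.55 in Caco-2 with control and BORIS siRNA and 8.40 and 8.03 in HCT116, at least 9.68-fold higher there, in the same direction as GTSF1. HENMT1, which methylates the ends of Piwi-interacting RNAs, read 8.54 and 8.39 in Caco-2 and 3.95 and 4.21 in HCT116, at least 10.0-fold lower there. The Piwi gene PIWIL4 read 6.85 and 6.69 in Caco-2 and 4.55 and 3.43 in HCT116, at least 3.10-fold lower there. PLD6 was higher in HCT116 by 0.72 (limma adjusted p 0.022). TDRKH read 6.28 and 6.50 in Caco-2 and 5.36 and 4.77 in HCT116, the last below background, and was at least 2.17-fold lower there. Both HCT116 values lay under the array median, so TDRKH too entered the test only through Caco-2 and no test is given for it. PLD6 and TDRKH were named after their values were seen. The meiotic cohesin gene SMC1B read 4.92 and 5.76 in Caco-2 and 3.69 and 3.77 in HCT116, above background on 1 array, Caco-2 with BORIS siRNA. None of the 53 was past 2-fold with BORIS siRNA while expressed.

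Of 56 measured cancer-testis genes outside the rule, 33 were at background on all arrays. LEMD1, a LEM domain protein gene, read 3.88 and 4.51 in Caco-2 with control and BORIS siRNA and 5.53 and 6.76 in HCT116. It was at background in Caco-2 and at least 2.30-fold higher in HCT116. Within HCT116 its BORIS array was higher by 1.23, and of the genes of this list expressed in a line it was the only one past 2-fold there. SPAG4 read 6.86 and 7.10 in Caco-2 and 3.84 and 4.19 in HCT116, at least 3.58-fold lower there.

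Genes tied to the silencing of germline genes, with the TET genes of DNA demethylation in the same list, were mostly read in both lines. Of 35 measured, 33 were above background on at least 1 array. Of 33 tested, 2 passed as higher in HCT116, MGA and PCGF6, and 4 as higher in Caco-2. Over all 11179 genes tested the shares were 19.2% and 19.7%. MGA had entered the test only through HCT116. MGA and PCGF6 are subunits of the Polycomb complex that represses germline genes. E2F6, L3MBTL2, MAX, TFDP1, RING1, RYBP, YAF2 and CBX3, further subunits in the list, did not pass. Their line differences lay between -0.25 and 0.39 (limma adjusted p 0.16 to 0.96). MGA read 4.10 and 4.54 in Caco-2 with control and BORIS siRNA and 7.05 and 7.09 in HCT116, at least 4.39-fold higher there, and PCGF6 read 6.93 and 7.22 against 8.36 and 8.68 (1.44, SE 0.17, limma adjusted p 0.0015). SUZ12, a subunit of the histone H3 lysine methyltransferase complex, was lower in HCT116 by -1.47 (SE 0.14, limma adjusted p 0.00065). The DNA methyltransferase gene DNMT3A read 7.39 and 7.54 in Caco-2 and 5.56 and 4.29 in HCT116, at least 4.27-fold lower there (limma adjusted p 0.0023). Within HCT116 it differed by -1.27 between BORIS and control siRNA, but the BORIS value was below background, so the bound is -0.38, and the mean of all its probe sets differed by -0.40.

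The G2/M genes, set beside PBK and KNL1, were all 25 expressed in both lines. By limma 3 were higher in HCT116, as PBK was, and 7 in Caco-2, where 19.2% and 19.7% of all 11179 genes tested were. The kinase gene TTK was among the 3 higher in HCT116 (0.81, SE 0.18, limma adjusted p 0.015), and FOXM1, a transcription factor of mitotic genes, was lower there (-1.06, SE 0.22, limma adjusted p 0.011), as were ECT2 (-1.04, SE 0.16, limma adjusted p 0.0036) and KIF11 (-0.87, SE 0.18, limma adjusted p 0.010). Their median differences with BORIS siRNA were 0.10 in Caco-2 and -0.09 in HCT116.

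The label of the lines as intestinal epithelium was checked by markers. Of 12 epithelial markers 9 were above background on at least 1 array, among them EPCAM, KRT8 and KRT18, while CDH17, CDX1 and GPA33 were at background on all 4, and VIL1 and LGALS4 were read in Caco-2 only. All 7 fibroblast markers and all 6 germ cell markers (DDX4, DAZL, MAEL, TNP1, PRM1 and PRM2) were at background on all arrays, so the antigen genes read in HCT116 came without these germ cell genes. Of 5 blood, 5 endothelial, 6 Sertoli and 5 Leydig cell markers measured, 2 each were above background on at least 1 array. HBB (6.38 to 6.64), VWF (5.37 to 6.05), KDR (5.36 to 5.42) and AMH (6.41 to 6.74) passed on all 4 arrays, and CSF1R, GATA4, INSL3 and CYP17A1 on 1 or 2. PTPRC, PECAM1, CDH5, FSHR and STAR were at background on all 4. The part of these markers in the members' values was not tested. Summed over each list, those 6 lists lay between 5.96 and 7.64 on the log2 scale on every array.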

How the data were processed

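Total RNA of 4 cultures, 1 per combination of cell line and siRNA, was measured on PrimeView arrays. For each probe set the deposited table gives an expression value on a log2 scale, as the range of 2.13 to 14.17 and array medians of 5.46 to 5.48 show. How the authors corrected background, normalized and summarised is not given in the sources used here. Of 49395 probe sets, 45064 had 1 distinct symbol in the platform annotation, 1756 several, 2473 none, and 102 were controls. In 76 of the 45064 the same symbol was written more than once, as for SPANXB1, and these were kept.

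Differences are log2 values with BORIS siRNA minus control, or HCT116 minus Caco-2, and a fold is given as a lower bound where 1 side was at background. limma 3.58.1 (R 4.3.3; lmFit, then eBayes with a mean trend) was fitted to all 4 arrays with cell line and siRNA as terms, on genes at or above the array median on at least 1 array, and p-values were adjusted over all of them. The fit was tested on simulated data. With 1 array per combination, the 1 residual degree of freedom holds the siRNA difference not shared by the lines, together with noise. The p-values rest on that spread, moderated across genes, and not on a spread between replicates. The labels do not say whether cultures were separate, so part of it may be technical.

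Named were all members above background, and from each comparison list up to 4 genes past 2-fold or the limma test by size, with somatic relatives of members. The members and lists were chosen with earlier results of these data known. Promoters came from RefSeq (GRCh38.p14), which held 41 of the 54 members. The alternatives tried changed the filter, the summary of probe sets, the normalization, the background level, the offset and the limma trend, and used the arrays of each siRNA alone.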

Additional observations from a re-analysis of the deposited data

Results flagged for a closer look

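Among the 8 members above background on all 4 arrays, 3 differed in opposite directions between the siRNAs in the 2 lines. With 1 array per group the difference between the lines was not tested. The share of all genes with opposite directions was not counted, so this count is no result about the members. Over all expressed genes the standard deviation of the siRNA difference was 0.27 in Caco-2 and 0.40 in HCT116. PBK differed by -0.23 in Caco-2 and by 0.34 in HCT116. CTAG2 differed by -0.40 in Caco-2 and by 0.16 in HCT116. XAGE2 differed by -0.15 in Caco-2 and by 0.12 in HCT116.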

How the results depend on the processing

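No paired analysis was possible because the labels carry no replicate numbers by which arrays could be matched, and cell line was already a term of every limma fit. The counts of members at 2-fold with BORIS siRNA (0 and 0 in Caco-2, 1 and 0 in HCT116) were the same under all 9 alternatives tried for them. The median difference of the members ran from -0.11 to -0.02 in Caco-2 and from 0.02 to 0.20 in HCT116. The count of members past the limma test of the shared siRNA effect went from 0 to 1, SPA17, after quantile normalization (86 of all genes) and to 1 after loess correction (112 of all genes). The cause was not tested. Under limma the members higher in HCT116 numbered 5 to 7. PBK was among them in every limma setting, joined by SSX2IP in 5 settings and KNL1 in 2. MAGEB2, GTSF1, PRAME and MAGEB1 were also among them in every setting. These 4 genes entered the filtered fits only through HCT116 and had to differ there, so their passing adds no support. No array could be left out of a group of 1, so the lines were also compared within each siRNA, without a test, which gave 4 members at 2-fold on the control arrays, where PBK fell short, and 5 on the BORIS arrays, beside 10.8% and 10.4% of all genes tested. Members above background on all 4 arrays numbered 8, against 13 on at least 1 array, by construction of the stricter rule. No sign of a called difference turned. Signal near background limits the other 41 members, whose differences cannot be read here.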
